A study of Mus musculus with 13 samples.

Results

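The 6 genes described here belong to a pair of imprinted growth domains of the mouse: H19 and Igf2 on chromosome 7, and Igf2r, Airn, Slc22a2 and Slc22a3 on chromosome 17. They were chosen by gene symbol, a rule that uses no measured value, and all 6 were found among the 38377 gene identifiers of the count table. RNA was measured by bulk sequencing in 13 libraries from female mouse cells. Extraembryonic endoderm (XEN) cells, stem cells of the early yolk sac lineage grown in DMEM with fetal bovine serum, were wild type (2 libraries), deleted for the paternal Xist allele (dXist, 3 libraries), wild type treated with 20 uM 5-aza-2'-deoxycytidine (Aza, an inhibitor of DNA methylation, 2 libraries), or paternally deleted and treated (2 libraries). Epiblast stem cells (EpiSC), pluripotent cells of the post-implantation epiblast cultured on a matrigel coat with the growth factors FGF2 and Activin, were wild type (2 libraries) or heterozygous for an Xist deletion (also called dXist here, 2 libraries). The deletions remove Xist, whose RNA coats and silences an X chromosome in females, and the study set their effect beside that of Aza in XEN cells. The labels do not say whether libraries of a group are separate clones or cultures, so the spread behind each p-value is that between libraries and may be technical.

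At an imprinted gene the copies inherited from the mother and the father are used unequally, under the control of DNA methylation laid down in the germ line. Igf2, a secreted growth factor, is expressed mainly from the paternal copy and the noncoding RNA H19 mainly from the maternal copy, through a control region between them whose unmethylated maternal copy binds the insulator protein CTCF. Igf2r, the receptor that takes IGF2 to the lysosome and also sorts lysosomal enzymes that carry mannose 6-phosphate, is maternally expressed in most tissues, while the long noncoding RNA Airn is transcribed from the paternal copy across the Igf2r promoter. Slc22a2 and Slc22a3, transporters of organic cations, are silenced on the paternal copy in extraembryonic tissue in an Airn-dependent way. The counts used here do not separate the parental copies, and in bulk RNA a change in the number of cells that express a gene and a change in RNA per cell cannot be told apart.

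Positions are on GRCm38 with GENCODE vM21 annotation. H19 (chr7:142575529-142578143, minus strand, a lincRNA) starts 72.6 kb from the end of Igf2 (chr7:142650766-142666816, minus strand, protein-coding). Of the 5723 exonic bases of Igf2, 3694 also belong to exons of other annotated genes, mostly of the gene model Gm49394 on the same strand. The handling of reads in shared exons was not stated. Gm49394 has a row of its own with 1 read in all 13 libraries together, against 672 for Igf2. Reads in the shared exons were therefore not counted for both genes, and Igf2 counts may leave them out. Igf2r (chr17:12682406-12769664, minus strand) has 48 exons. Airn (chr17:12741311-12860136, plus strand) starts inside Igf2r intron 2, 28.4 kb from the Igf2r start, and shares 0 exonic bases with it, although unspliced Airn crosses the Igf2r promoter. Without known use of strand in counting, unspliced reads of Airn and reads of the Igf2r exons it crosses cannot be told apart. Slc22a2 (chr17:12584132-12628488, plus strand) and Slc22a3 (chr17:12418960-12507704, minus strand) lie on the other side of Igf2r, and Airn is transcribed away from both.

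**Figure D1:**
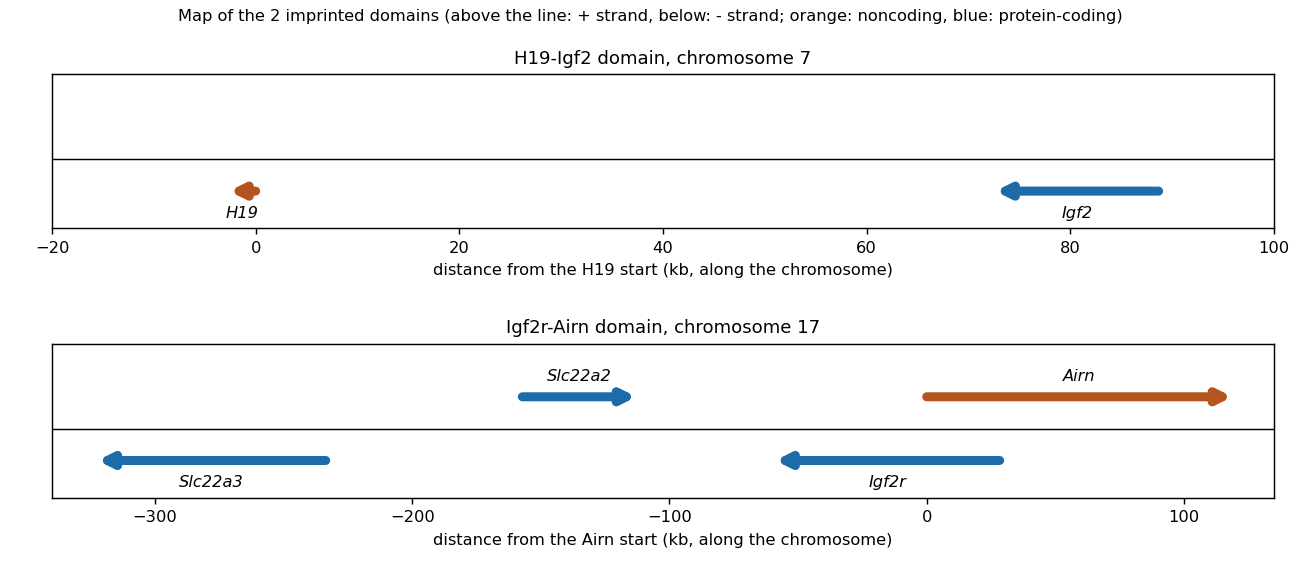
Map of both domains to scale, with distance in kb from the H19 start (upper panel) and from the Airn start (lower panel) along the chromosome, and arrows that give the direction of transcription. The Airn and Igf2r arrows overlap on opposite strands for 28.4 kb, while Slc22a2 and Slc22a3 lie to the left of Igf2r.

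The sequences that follow are the mature products of miR-675, which is cut from exon 1 of H19, and the promoters of Igf2r and Airn, the pair of overlapping genes whose balance is described further on. All are from RefSeq on GRCm38.p6 and read 5′ to 3′. Capitals mark the seed (bases 2 to 8) of each microRNA. The arms, at chr7:142577112-142577133 and chr7:142577078-142577099 on the minus strand, have different seeds, and mature microRNAs were not measured in these libraries.
miR-675-5p: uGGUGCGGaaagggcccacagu
miR-675-3p: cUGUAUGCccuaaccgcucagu

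In the promoters, which run from 250 bases before to 50 bases after the start, capitals mark each CG, the dinucleotide that carries the DNA methylation whose upkeep Aza inhibits. CG reads the same on both strands. Promoters were found for 5 of the 6 genes. The Igf2r window (chr17:12769657-12769956, minus strand) holds 34 CG, and 7.73% of the 32851 mouse promoters of the same length hold as many or more. The Airn window (chr17:12741061-12741360, plus strand) holds 3 CG, a number that 76.7% of promoters reach, against a median of 7. CG beyond each window were not counted, so a low number does not describe the sequence around it. The 4 Igf2 promoters hold 2, 14, 24 and 7 CG, the Slc22a2 promoter 8 and the Slc22a3 promoter 5.
Igf2r promoter: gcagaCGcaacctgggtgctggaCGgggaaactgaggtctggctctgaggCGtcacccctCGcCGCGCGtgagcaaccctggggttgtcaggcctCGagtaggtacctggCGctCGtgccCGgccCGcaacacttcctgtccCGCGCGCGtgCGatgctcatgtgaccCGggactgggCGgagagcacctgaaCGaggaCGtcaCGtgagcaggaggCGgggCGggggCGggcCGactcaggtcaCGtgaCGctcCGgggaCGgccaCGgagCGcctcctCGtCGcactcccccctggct
Airn promoter: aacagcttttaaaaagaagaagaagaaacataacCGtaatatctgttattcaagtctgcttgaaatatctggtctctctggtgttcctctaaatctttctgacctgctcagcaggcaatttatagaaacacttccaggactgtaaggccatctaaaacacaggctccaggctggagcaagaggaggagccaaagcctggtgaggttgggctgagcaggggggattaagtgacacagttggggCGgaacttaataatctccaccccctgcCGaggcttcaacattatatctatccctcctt

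Libraries held between 5848454 and 35247432 counts, the lowest numbers being those of treated wild-type XEN. Levels are in CPM, that is counts scaled to a common library total after TMM normalisation, and 3 counts corresponded to between 0.0815 and 0.498 CPM. Libraries fell into 2 types by the share of mitochondrial rRNA and Rn7sk, RNAs without long poly(A) tails: 10.4% to 13.5% in library 2 of each EpiSC group and in the 2 libraries of treated wild-type XEN (total-like), and 0.279% or less in the other 9 (polyA-like). In XEN cells the total-like libraries were exactly those of treated wild-type cells, so the 2 cannot be told apart in that comparison. Xist stood at 206 CPM or more in wild-type libraries and at 4.79 CPM or less in untreated dXist libraries, but at 14.6 and 242 CPM in treated dXist XEN libraries 1 and 2. All 12 extraembryonic endoderm markers were lower in wild-type EpiSC than in wild-type XEN, and 10 of 11 epiblast markers were higher, as the labels have it. Among untreated dXist XEN libraries, library 3 stood apart from libraries 1 and 2 in H19, and the results that rest on it are given with and without it.

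**Figure D2:**
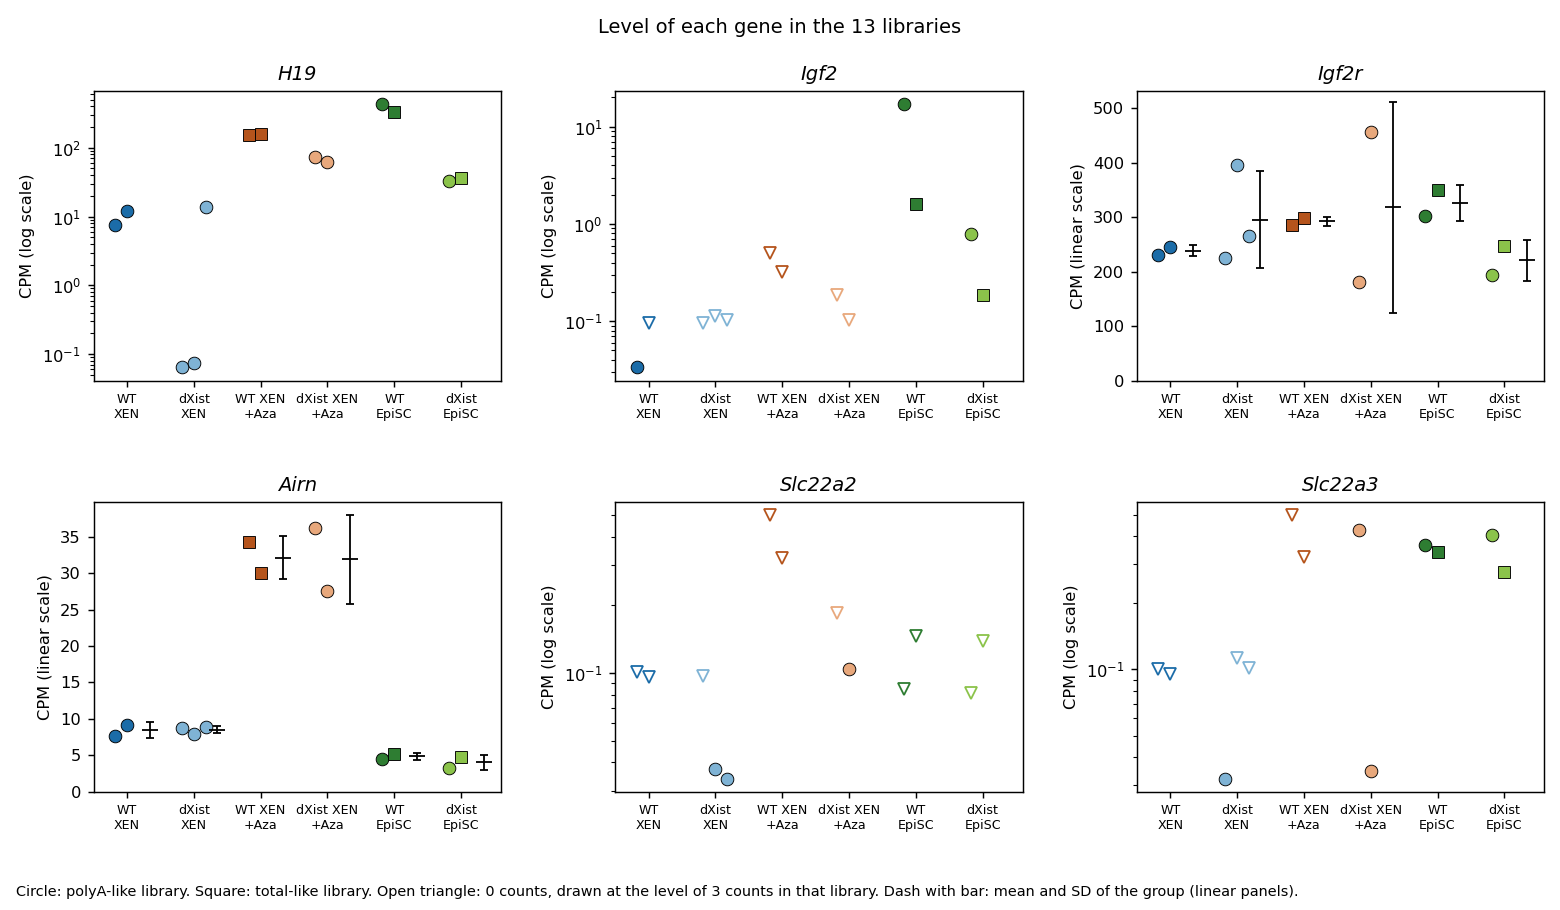
Level of each gene in CPM (vertical axis) in each library (points) of the 6 groups. H19 spans the widest range, from 0.0641 to 431 CPM, Igf2 is counted almost only in EpiSC, Igf2r stays between 181 and 456 CPM, Airn is highest in both treated groups, and Slc22a2 and Slc22a3 are near the level of 3 counts.

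Per kilobase of exon, the scale on which genes can be compared, Igf2r led in untreated XEN cells and H19 in wild-type EpiSC. In wild-type XEN the group means were 25.6 CPM per kb for Igf2r, 4.01 for H19 and 2.35 for Airn. In wild-type EpiSC they were 156 CPM per kb for H19, 35.0 for Igf2r, 1.63 for Igf2, 1.35 for Airn and 0.0782 for Slc22a3. Igf2 was divided by all its 5723 exonic bases, shared ones included, so its level per kb may be too low. Slc22a2 had 5 counts in all 13 libraries together, of which 3, the detection floor, were in treated dXist XEN library 2, and no other library held more than 1.

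H19 had the widest range of levels. In wild-type XEN it stood at 7.57 and 12.1 CPM, in both treated libraries of that genotype at 156 CPM, and in treated dXist XEN at 73.8 and 61.2 CPM. In wild-type EpiSC it stood at 431 and 335 CPM and in dXist EpiSC at 32.6 and 36.7 CPM. The 3 untreated dXist XEN libraries had 0.0641, 0.0748 and 13.9 CPM, that is 2, 2 and 410 reads. Ordered by mean, the groups ran from wild-type EpiSC through treated wild-type XEN, treated dXist XEN and dXist EpiSC to wild-type XEN and dXist XEN. Only the last neighbours in that order, wild-type and dXist XEN, overlapped. Overlap between groups is a description here and below, without a test. Groups of 2 or 3 libraries can fail to overlap by chance, and the share of all genes without overlap is not given.

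Igf2r, the receptor gene, varied least of the 3 genes counted in all 13 libraries, between 181 and 456 CPM with a median of 266 CPM over the 13 libraries. Its group means ran from 326 ± 33.5 CPM in wild-type EpiSC to 221 ± 37.4 CPM in dXist EpiSC (SD, n = 2 each), and all neighbours in that order overlapped except treated and untreated wild-type XEN. Airn fell into 3 tiers without overlap between them: both treated XEN groups, then both untreated XEN groups, from 7.70 to 9.22 CPM, then both EpiSC groups, from 3.29 to 5.18 CPM. Within a tier the groups overlapped. Igf2 had a mean of 9.33 ± 10.9 CPM in wild-type EpiSC and 0.486 ± 0.427 CPM in dXist EpiSC (SD, n = 2 each), and 1 read in the 9 XEN libraries together.

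In untreated XEN cells, deletion of the paternal Xist allele went with almost no H19 in libraries 1 and 2 and with a wild-type level in library 3. None of the 3 genes tested (H19, Igf2r and Airn) passed an adjusted p of 0.05 with all libraries, in a comparison where 0.0217% of 18393 genes did. At an unadjusted p under 0.05 edgeR named 0 of the 3 and 1973 genes in all, and DESeq2 called 0 of the 3 and 455 genes and gave no adjusted p for H19. H19 had a log2 fold change of -1.06 (SE 1.45, adjusted p = 0.829 by edgeR's quasi-likelihood test), with overlap between the groups. Library 3 held 217 times (95% counting interval 59.7 to 1798) the level of library 1 and 186 times (51.2 to 1542) that of library 2. Without library 3, H19 fell by 7.07 on the log2 scale (SE 0.49, adjusted p = 0.0021), where 2.87% of genes were called. Library 3 was singled out for its H19 level, so p-values of H19 without it, here and in later comparisons, depend on that choice and are no independent test. The wild-type mean of 9.86 ± 3.24 CPM (SD, n = 2) was 142-fold the mean of libraries 1 and 2, 0.0694 ± 0.00752 CPM (SD, n = 2).

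Marker levels in the dXist libraries differed gene by gene. The summed level of 13 fibroblast and mesenchyme markers was 11.7 and 5.91 CPM in libraries 1 and 2 and 45.6 CPM in library 3, against 39.2 and 55.3 CPM in wild-type XEN. In library 3 a single marker, the matrix protein gene Fbln2, made up 41.9 CPM of that sum, beside 7.92 and 3.51 CPM in libraries 1 and 2 and 5.29 and 34.4 CPM in the wild type. The receptor gene Pdgfrb stood at 1.12, 1.08 and 2.34 CPM in dXist libraries 1 to 3 against 16.8 and 16.0 CPM in the wild type, so library 3 was not near the wild type there. Col1a1, at 0.449, 0.374 and 0.339 CPM, did not set library 3 apart, and 4 to 6 of the 13 were at 0 in each dXist library, among them Thy1, Twist1 and Twist2 in all 3.

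The summed level of 6 visceral endoderm markers was 82.2 and 75.1 CPM in libraries 1 and 2, 197 CPM in library 3, and 208 and 162 CPM in wild-type XEN. Of these, the transcription factor gene Hnf4a had 5.61, 6.32 and 38.6 CPM in dXist libraries 1 to 3 against 23.2 and 29.6 CPM in the wild type. The endocytic receptor gene Cubn had 40.6, 40.1 and 69.6 CPM against 162 and 104 CPM. Apoa1, from the same list, went the other way, with 28.3, 18.3 and 13.1 CPM against 9.31 and 0 CPM. Mesoderm markers summed to 7.02, 7.96 and 2.68 CPM in libraries 1 to 3 and trophoblast markers to 2.24, 1.16 and 0.645 CPM, lowest in library 3. The part of such cells in the H19 difference was not tested.

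**Figure D3:**
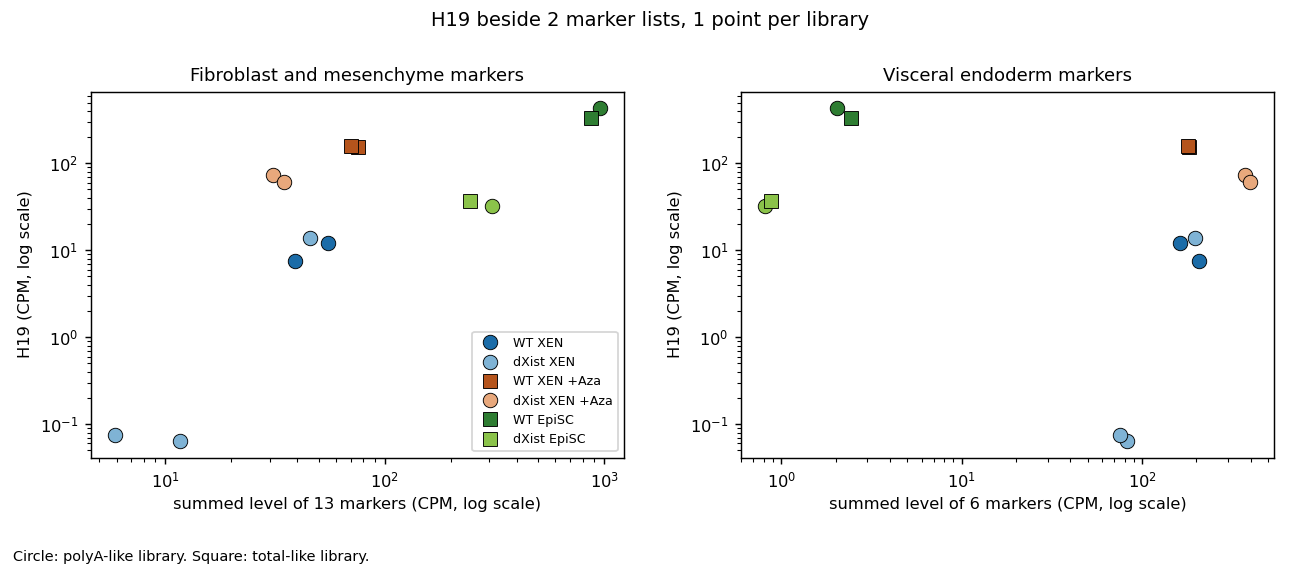
H19 level (vertical axis, CPM, log scale) against the summed level of 13 fibroblast and mesenchyme markers (left) or 6 visceral endoderm markers (right) in each library (points, coloured by group). In XEN cells, untreated dXist libraries 1 and 2 lie at the lowest H19 level and at the lowest fibroblast and visceral endoderm sums, and Fbln2 alone makes up 41.9 of the 45.6 CPM of library 3's fibroblast sum.

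Igf2r and Airn were not called in dXist XEN cells. Igf2r stood at 231 and 245 CPM in wild-type XEN and at 226, 395 and 266 CPM in dXist XEN, overlapping groups with a log2 fold change of 0.31 (SE 0.44, adjusted p = 0.834). Airn stood at 7.70 and 9.22 CPM in wild-type XEN and at 8.79, 7.92 and 8.82 CPM in dXist XEN, with all dXist values inside the wild-type range and a log2 fold change of 0.0019 (SE 0.34, adjusted p = 1). Igf2 had 1 read in the 2 wild-type libraries and 0 in the 3 dXist libraries, and Slc22a3 had 0 reads and 1 read.

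Airn was higher in treated than in untreated XEN cells of both genotypes, without overlap. In treated wild-type XEN it stood at 34.2 and 30.0 CPM and in treated dXist XEN at 36.2 and 27.6 CPM, and no untreated XEN library exceeded 9.22 CPM. The treated means, 32.1 ± 2.97 and 31.9 ± 6.10 CPM (SD, n = 2 each), were 3.80-fold and 3.75-fold the untreated means of the same genotype. In the wild type the log2 fold change was 2.01 (SE 0.38) and the adjusted p was 0.0624, in a comparison where edgeR called 0.582% of genes and none of these 3. Airn and H19, 2 of the 3, had an unadjusted p under 0.05. DESeq2 called Airn alone (adjusted p = 0.000238), where it called 3.72% of genes. Fitted over the 13 libraries together, with a term for library type, the Airn change was 1.56 (SE 0.56, adjusted p = 1).

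In dXist XEN, where treated and untreated libraries were all polyA-like, the log2 fold change of Airn was 1.75 (SE 0.33, adjusted p = 0.0614), with 0.0761% of genes called by edgeR and none of these 3 among them. Airn and H19, 2 of the 3, again had an unadjusted p under 0.05. Airn missed the threshold in that fit and passed it in 5 of 11 alternatives, with adjusted p between 0.000142 and 0.192 over all of them. It passed without dXist library 3 (adjusted p = 0.0473, 2.33% of genes called) and without treated library 2 (log2 fold change 1.86, adjusted p = 0.00533, 23.9% called). It also passed with DESeq2 (adjusted p = 0.000142, 14.2% called), with the library type term (1.91, adjusted p = 0.0226, 6.68% called) and with no filter (adjusted p = 0.0216, 7.71% called). The Aza effect on Airn differed between the genotypes by -0.25 (dXist minus wild type, SE 0.50, adjusted p = 0.901), in a test that called 0.245% of genes and none of these 3. For that difference 0 of the 3 had an unadjusted p under 0.05, and DESeq2 called 0 of them.

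H19 was also higher after Aza in both genotypes, without overlap. In wild-type cells the treated mean of 156 ± 0.545 CPM (SD, n = 2) was 15.8-fold the untreated mean, with a log2 fold change of 4.06 (SE 1.80, adjusted p = 0.40). In dXist cells the treated mean of 67.5 ± 8.93 CPM (SD, n = 2) was 14.4-fold the untreated mean of 4.68 ± 7.99 CPM (SD, n = 3), with a log2 fold change of 3.67 (SE 1.51, adjusted p = 0.161). Neither difference passed the threshold in these fits, in which all 9 XEN libraries share 1 estimate of the spread. Without dXist library 3 the change in dXist cells was 9.69 (SE 0.52, adjusted p = 0.00075), and the treated mean was 972-fold the mean of libraries 1 and 2. Between libraries that carry the same number in the labels, H19 was 1151 times (95% counting interval 318 to 9517) higher in treated library 1 and 819 times (226 to 6765) higher in treated library 2. Visceral endoderm markers summed to 372 and 395 CPM in treated dXist XEN and fibroblast markers to 30.9 and 34.6 CPM, both above dXist libraries 1 and 2. Cubn alone made up 334 and 339 CPM of the visceral endoderm sums, while Apoa1, at 0.123 and 0.243 CPM, was below every untreated dXist library. The fibroblast sums were below the 45.6 CPM of dXist library 3, and Fbln2 made up 18.9 and 19.9 CPM of them. In treated wild-type XEN the fibroblast markers summed to 75.2 and 70.3 CPM, above untreated cells, with 7 and 8 of the 13 at 0 and Fbln2 at 52.6 and 50.7 CPM, and the visceral endoderm markers to 182 and 180 CPM, inside the untreated range. The part of such cells in the H19 differences after Aza was not tested.

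The difference between genotypes in the Aza effect on H19 depended on the same library. It was -0.39 (dXist minus wild type, SE 2.17, adjusted p = 0.977) with all libraries and 5.62 (adjusted p = 0.00604, 0.281% of genes called) without dXist library 3. Library type changes with treatment in the wild type and not in dXist cells, so this difference and library type cannot be told apart.

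Igf2r, the protein-coding partner of Airn, was not called after Aza. It stood at 286 and 298 CPM in treated wild-type XEN, above the 231 and 245 CPM of untreated cells (log2 fold change 0.38, SE 0.48, adjusted p = 0.799). In treated dXist XEN its values were 181 and 456 CPM, the lowest and the highest of all 13 libraries, on either side of the untreated range (log2 fold change -0.026, SE 0.43, adjusted p = 0.975). The higher of these is library 2, the library with 242 CPM of Xist. Without it the change was -0.93 (adjusted p = 0.114), and without library 1 it was 0.49 (adjusted p = 0.522).

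Airn reads were a larger share of Igf2r reads, a ratio free of library size, in each treated XEN library than in any untreated one. The share was 3.33% and 3.75% in wild-type XEN and 3.90%, 2.01% and 3.32% in dXist XEN. With Aza it was 11.9% and 10.1% in the wild type and 20.0% and 6.05% in dXist cells. Those last values differ by more than the Airn levels of the same libraries, 36.2 and 27.6 CPM, and Igf2r stood at 181 and 456 CPM there. EpiSC had the lowest shares, 1.5% and 1.48% in the wild type and 1.69% and 1.94% in dXist cells, below all 5 untreated XEN libraries. The mean log2 ratio differed by -0.95 between EpiSC and untreated XEN (exact permutation test, two-sided p = 0.0159, the smallest that 4 against 5 libraries allow). Among polyA-like libraries alone the difference was -0.99 (exact permutation p = 0.0952, the smallest that 2 against 5 allow).

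**Figure D4:**
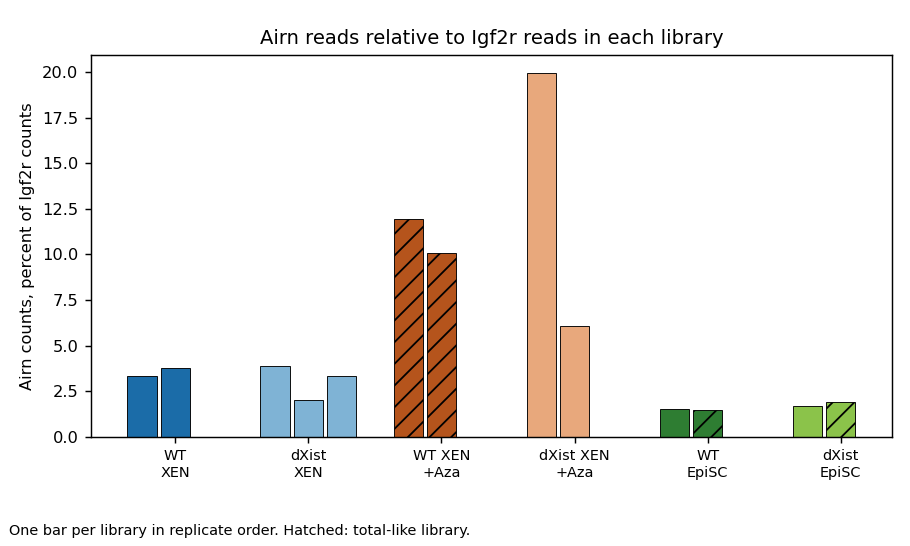
Airn counts as a percent of Igf2r counts (vertical axis, from 0) in each library (bars, in replicate order within each of the 6 groups, hatched where total-like). The 4 treated libraries stand between 6.05% and 20.0%, the 5 untreated XEN libraries between 2.01% and 3.90%, and the 4 EpiSC libraries between 1.48% and 1.94%.

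Slc22a3 appeared in treated dXist XEN at 7 reads and 1 read, against 1 read in the 3 untreated dXist libraries. The ratio of the summed levels was 15.5 (95% counting interval 2.08 to 687), and the gene was below the filter of the fit, so it was not tested. Treated wild-type XEN had 0 reads of Slc22a3, and the level of 3 counts over those 2 shallow libraries was 0.196 CPM. Slc22a2 had 0 and 3 reads in treated dXist XEN, and 0 reads in the treated wild type. No Igf2 read was counted in any of the 4 treated libraries.

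In EpiSC, H19 and Igf2 were both lower in dXist than in wild-type cells. The H19 levels given above make an 11.0-fold difference of the means without overlap. Igf2 had 17.1 and 1.6 CPM in wild-type cells against 0.788 and 0.184 CPM in dXist cells, also without overlap, although the wild-type libraries themselves differed widely. With 2 libraries a group and no term for library type, neither passed: H19 had a log2 fold change of -3.44 (SE 0.32, adjusted p = 0.102) and Igf2 one of -4.16 (SE 1.33, adjusted p = 0.409). That edgeR fit called 0% of genes, with 1741 of 17132 and 2 of these 4 tested genes at an unadjusted p under 0.05. DESeq2 called 494 genes (2.85%), H19 (adjusted p = 1.1e-20) and Igf2 (adjusted p = 0.00212) among them.

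Library number 1 was polyA-like and number 2 total-like in both EpiSC groups, so the comparison could also be made within type. H19 was -3.72 on the log2 scale in the polyA-like pair and -3.19 in the total-like pair, and Igf2 was -4.44 and -3.12. A fit with library type as a term, which leaves 1 residual degree of freedom, called both. H19 fell by 3.43 (SE 0.36, adjusted p = 3.1e-18) and Igf2 fell by 4.07 (SE 0.50, adjusted p = 1.3e-13), where 11.4% of genes were called and 6.53% were lower. In that fit the spread was taken almost wholly from all genes together. Its p-values, here and in later EpiSC calls with that term, therefore do not measure the spread of each gene between libraries. Igf2 counts in the total-like libraries were few, 33 and 4 reads. Without wild-type library 1 the fitted Igf2 change was -1.66. Over the 13 libraries together, with their type as a term, neither was called: H19 had -3.46 (SE 1.58, adjusted p = 1) and Igf2 -3.84 (SE 1.02, adjusted p = 0.890).

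Igf2r and Airn were not called between EpiSC genotypes. Igf2r had 302 and 350 CPM in wild-type cells and 194 and 247 CPM in dXist cells, lower without overlap (log2 fold change -0.54, SE 0.30, adjusted p = 0.621), and Airn had 4.54 and 5.18 CPM against 3.29 and 4.79 CPM, with overlap (-0.25, SE 0.36, adjusted p = 0.863). Slc22a3 had 13 and 7 reads in the wild type and 15 and 6 in dXist cells, levels of 0.353 ± 0.0199 and 0.342 ± 0.0929 CPM (SD, n = 2 each) that overlapped.

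Most markers of fibroblasts and mesenchyme were lower in dXist EpiSC, as H19 and Igf2 were. The 13 markers summed to 954 and 867 CPM in wild-type EpiSC against 307 and 244 CPM with the deletion. Without the library type term 0 of the 13 were called. With it 11 were lower and 0 higher, where 6.53% of all genes were lower. Twist2 went the other way, at 0.762 and 1.84 CPM in wild-type against 1.68 and 2.02 CPM in dXist cells. All 13 were counted in the wild type and Lum alone was at 0 in dXist cells. The part of such cells in the H19 and Igf2 differences was not tested. The 11 epiblast markers summed to 1327 and 1015 CPM in wild-type libraries 1 and 2 and to 1572 and 1136 CPM in dXist libraries 1 and 2. With the library type term 3 of the 11 were called higher in dXist cells and 0 lower, where 11.4% of all genes were called in either direction. Only 4 of the 11 had a log2 fold change above 0, and the median was -0.035.

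**Figure D5:**
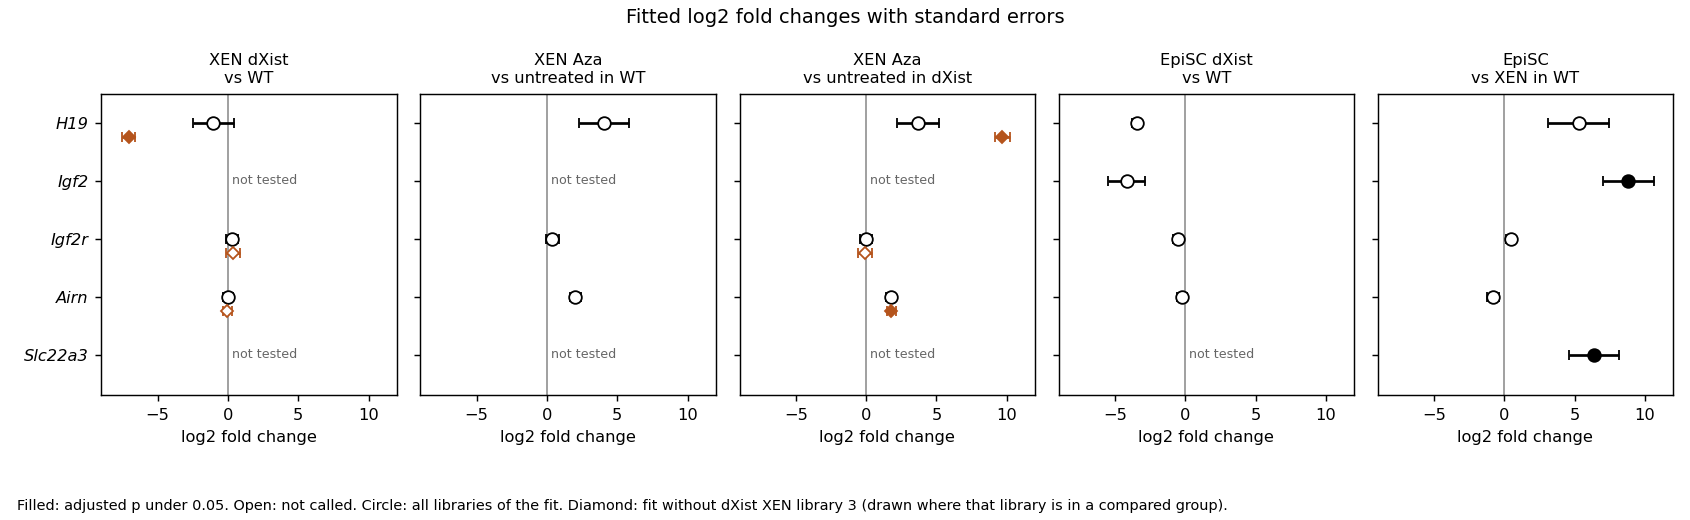
Fitted log2 fold changes (horizontal axis) with standard errors for each gene (rows) in 5 comparisons (panels), filled where the adjusted p is under 0.05. H19 moves from -1.06 to -7.07 in dXist XEN and from 3.67 to 9.69 after Aza in dXist XEN when dXist library 3 is left out (diamonds), and Igf2 and Slc22a3 are called between EpiSC and XEN.

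Between cell types, Igf2 and Slc22a3 were called higher in wild-type EpiSC than in wild-type XEN, 2 of the 5 genes tested, in a comparison where 30.8% of genes were called and 16.8% were higher. Neither gene passed the filter in the fit of XEN libraries, so both entered this fit through their EpiSC reads. A call in the other direction was not possible for them, and the direction of these calls is no independent result. Igf2 had 605 and 33 reads in EpiSC against 1 and 0 in XEN, a ratio of 696 (95% counting interval 124 to 27538), with a log2 fold change of 8.81 (SE 1.82, adjusted p = 0.0104). Most of the reads came from EpiSC library 1, without which the log2 fold change was 6.31 (adjusted p = 0.0675). It was 11.08 (adjusted p = 0.0502) without wild-type XEN library 1, 7.99 (adjusted p = 0.0621) without XEN library 2 and 9.72 (adjusted p = 0.00805) without EpiSC library 2. Slc22a3 had 13 and 7 reads against 0 and 0, at least 7.20-fold higher against a floor of 3 counts over the XEN group (log2 fold change 6.38, SE 1.80, adjusted p = 0.0288). It missed the threshold in 5 of 10 alternatives, with adjusted p up to 0.0893, each of the 4 that leave out a library among them.

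H19, at 38.8-fold the XEN mean in wild-type EpiSC and without overlap, did not pass (log2 fold change 5.28, SE 2.14, adjusted p = 0.102). That fit also holds the 3 dXist XEN libraries, whose H19 values were far apart. H19 passed in 2 of 9 alternatives, with the replicate block (adjusted p = 1.8e-05) and with no filter (adjusted p = 1.7e-24). Igf2r was 0.45 higher in EpiSC on the log2 scale (SE 0.34, adjusted p = 0.330) and Airn was -0.80 (SE 0.44, adjusted p = 0.184), and neither was called. Their groups did not overlap, which with 2 libraries each is a description only. The groups compared include a total-like library only in EpiSC. Fibroblast and mesenchyme markers moved with this comparison too: 11 of 13 were called higher in EpiSC and 0 lower, with sums of 954 and 867 CPM against 39.2 and 55.3 CPM. The part of such cells in the differences of Igf2, Slc22a3 and H19 between cell types was not tested.

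None of the 5 genes tested was called in the test of whether the dXist difference itself differed between EpiSC and XEN, which called 0.0101% of genes in edgeR, 2041 of 19733 having an unadjusted p under 0.05 and DESeq2 calling 403. For H19 the difference of differences was -2.36 (EpiSC minus XEN, SE 2.50, adjusted p = 0.765), and it turned to 3.65 (adjusted p = 0.0189) without dXist XEN library 3, where 3.44% of genes were called. The wild-type and dXist libraries of each cell type enter both this test and the single comparisons.

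The other ligands, receptors and adaptors of IGF and insulin signalling were called in few cases within XEN cells. In dXist XEN 1 of 8 tested was lower, where 0.0217% of all genes were called. It was Grb10, an imprinted adaptor that restrains insulin and IGF receptor signalling, at 0.137 ± 0.0297 CPM (SD, n = 3) against 74.2 ± 13.4 CPM (SD, n = 2). All 3 dXist libraries were far under the wild type (log2 fold change -9.03, SE 0.44, adjusted p = 4.6e-05). Grb10 rose after Aza in dXist XEN to 1.66 ± 0.430 CPM (SD, n = 2, log2 fold change 3.38, SE 0.40, adjusted p = 0.0498), where 0.0761% of all genes were called. That call was lost without dXist library 1 (adjusted p = 0.175), dXist library 2 (adjusted p = 0.179) or treated library 1 (adjusted p = 0.0868). The Aza effect on Grb10 differed between genotypes by 4.51 (dXist minus wild type, adjusted p = 0.00678, 0.245% of genes called), a difference that cannot be told apart from library type. Its dXist effect differed between cell types by 8.68 (EpiSC minus XEN, adjusted p = 0.000447, 0.0101% of genes called). After Aza in wild-type XEN 0 of 8 were called. In wild-type EpiSC 3 of 8 were higher than in XEN and 0 lower, where 16.8% of all genes were higher and 14.1% lower. They were Grb10 and the receptor substrates Irs4 (67.4 against 0.387 CPM) and Irs1 (63.4 against 28.1 CPM). In dXist EpiSC 0 of 8 were called without the library type term and 3 were lower with it, where 6.53% of all genes were: the ligand Igf1 (2.01 against 20.2 CPM), the adaptor Grb14 and Irs1.

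Proteins that bind IGFs in the extracellular space or control their availability gave 5 higher of 10 tested in wild-type EpiSC against XEN and 0 lower. In that comparison 16.8% of all genes were higher. The median log2 fold change of the list was 3.41 beside 0.13 over all genes. Fibroblast markers were higher in the same comparison (11 of 13). In dXist EpiSC 11 of the 13 were lower with the library type term and 0 without it. The part of such cells in these counts was not tested. Igfbp7 (33.1 against 0.0494 CPM), Igfbp3 (87.3 against 0.317 CPM), Igfbp4 (71.2 against 9.93 CPM) and Stc1, an inhibitor of the protease that cleaves IGF-binding proteins (4.15 against 0.0989 CPM), had the smallest adjusted p. In dXist or treated XEN cells 0 of the 10 were called with all libraries, and without dXist library 3 Igfbp4 was lower (adjusted p = 0.0168) and Stc2 higher (adjusted p = 0.0239) in dXist XEN. In dXist EpiSC 0 of 9 were called without the library type term, and with it 4 were lower (6.53% of all genes) and 1 higher: Igfbp7, Igfbp5 and the protease Pappa were among the lower and Igfbp4 was the higher. Of the 3 IGF2 mRNA-binding proteins, Igf2bp3 was higher and Igf2bp2 lower in EpiSC than in XEN, and both were lower in dXist EpiSC with the library type term.

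The sorting route that Igf2r serves was called mostly between cell types. Of 12 genes for mannose 6-phosphate tagging, adaptors and retromer, 1 was higher and 4 were lower in wild-type EpiSC than in XEN, beside 16.8% and 14.1% of all genes. Sort1, a sorting receptor for lysosomal cargo, stood at 205 ± 22.3 against 19.3 ± 5.08 CPM (SD, n = 2 each). The adaptors Gga2 (79.2 against 495 CPM) and Gga1 (23.1 against 83.7 CPM) and Nagpa, which uncovers the mannose 6-phosphate tag (7.36 against 46.6 CPM), were lower. In each of the other comparisons 0 of 12 were called with all libraries. Without dXist XEN library 3 the retromer genes Vps26a (higher in dXist XEN, adjusted p = 0.0498) and Vps29 (lower after Aza in dXist XEN, adjusted p = 0.0499) passed. Among 6 other organic cation transporters tested, 1 was higher (Slc29a4) and 3 were lower (Slc47a2, Slc22a21 and Slc22a5) in EpiSC, against the same shares of all genes, and 0 were called elsewhere.

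Of 6 tested factors that protect or read imprints, 1 was called in any comparison: Ehmt2, a histone H3 lysine methyltransferase, at 76.2 ± 16.8 CPM in wild-type EpiSC against 282 ± 33.1 CPM in wild-type XEN (SD, n = 2 each, log2 fold change -1.89, SE 0.35, adjusted p = 0.00421). Ctcf, the insulator protein, had the smallest adjusted p of these factors after Aza in wild-type XEN, with 62.8 against 106 CPM and an adjusted p of 0.414. Among 15 tested imprinted growth genes outside the 2 domains, 8 were higher and 1 was lower in EpiSC than in XEN, beside 16.8% and 14.1% of all genes. In dXist EpiSC 4 were lower with the library type term, beside 6.53% of all genes. Those 4 were Dcn, a matrix proteoglycan that is also on the fibroblast list (0.151 against 7.73 CPM), Mest (113 against 477 CPM), Dlk1 (0.898 against 4.56 CPM) and Cdkn1c, an inhibitor of the cell cycle (16.2 against 30.8 CPM).

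The reported fits called genes beside the domains only in comparisons of EpiSC libraries. Of 15 other genes within 200 kb of H19 and Igf2, 4 reached a mean of 1 CPM in a group, and of 28 around Igf2r to Slc22a3, 13 did. In EpiSC against XEN, 2 of 5 tested around H19 and Igf2 were higher and 0 lower. Around Igf2r to Slc22a3, 1 of 17 was higher and 1 lower, beside 16.8% and 14.1% of all genes. With the library type term 2 of 5 and 0 of 11 were lower in dXist EpiSC, beside 6.53% of all genes. Lsp1, an actin-binding protein of leukocytes that lies on the far side of H19 from Igf2, stood at 14.4 ± 2.39 CPM in wild-type EpiSC and 4.04 ± 0.989 CPM in dXist EpiSC, against 0.0997 ± 0.0959 CPM in wild-type XEN (SD, n = 2 each). Igf2os, the antisense RNA that overlaps Igf2 by 7.12 kb, had 36 and 15 reads in wild-type EpiSC, 4 and 3 in dXist EpiSC and 0 in wild-type XEN. Both were higher in EpiSC than in XEN (adjusted p = 0.00109 and 0.0177) and lower in dXist EpiSC with the library type term. Without known use of strand in counting, reads of Igf2os and Igf2 cannot be told apart where they overlap. Around Igf2r, Agpat4 was lower (36.4 against 134 CPM) and Acat2 higher (82.1 against 39.0 CPM) in EpiSC than in XEN. In the comparisons within XEN cells 0 neighbours of either domain were called.

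Among 14252 genes with a mean of at least 1 CPM, those whose log2(CPM + 0.5) tracked each gene best over the 13 libraries differed between the 4 genes measured well enough. For H19 they were Vcl, F2r and Herc1 (Pearson r of 0.94, 0.93 and 0.93), for Igf2 Pax2, Rerg and Neurod1 (0.97, 0.94 and 0.94), for Igf2r Gm2792, Maml3 and Sptlc1 (0.83, 0.81 and 0.80) and for Airn Plac8, 4933402E13Rik and Apol7a (0.97, 0.96 and 0.96). These correlations describe libraries that share groups, depth and library type. Plac8 stood at 44.7 and 37.6 CPM in treated wild-type and dXist XEN against 4.68 and 2.71 CPM untreated, and at 0.298 and 0.530 CPM in wild-type and dXist EpiSC, the same 3 tiers as Airn. Over the 9 polyA-like libraries the 3 best matches shared 1 gene with these for H19, 0 for Igf2, 1 for Igf2r and 0 for Airn.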

How the data were processed

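RNA was sequenced in 13 libraries of 6 groups named by the labels, between 5848454 and 35247432 counts each. In the deposited table each value is a raw read count of a gene in a library. Per the submitters' processing notes, FastQC, STAR 2.7.9a and featureCounts 2.0.1 were used with GRCm38 (mm10). The counting strand, the treatment of reads in shared exons and which library had which of the kits named in the labels' protocols (NEBNext Ultra or TruSeq stranded) are not stated in the labels. Of the identifiers, 38240 (99.6%) matched GENCODE vM21. Genes counted in both directions or sharing exons are uncertain for that reason.

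Counts were tested in R 4.3.3 with edgeR 4.0.16 (TMM, filterByExpr, robust quasi-likelihood F test) over all genes of a fit. Calls needed an adjusted p (Benjamini-Hochberg) under 0.05, and adjusted p-values are edgeR's unless DESeq2 1.42.0 is named. The 9 XEN libraries (5 residual degrees of freedom), the 4 EpiSC libraries (2) and the 9 untreated libraries (5) formed the fits, in 7 comparisons. Each standard error was derived from the fold change and its F statistic. Library type was set by mitochondrial rRNA and Rn7sk above 5% of counts. Within-library ratios had 0.5 counts added and were tested by exact permutation in SciPy 1.17.1. Counting intervals and the floor of 3 counts cover counting error only. Median log2 fold changes over all genes in the fits lay between -0.11 and 0.13. The scripts were tested on simulated data.

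The genes and lists were chosen with earlier results of these data known. Genes outside the 6 were named by rule: neighbours within 200 kb that were called or reached 1 CPM, up to 4 called genes per list, taken by adjusted p (or the 1 with the lowest when none was called), and the 3 best-correlated genes. Alternatives were DESeq2, RLE scaling, no filter, genes without poly(A) tails left out, a replicate or library type term, and each library left out. The reading of the replicate term as library type in EpiSC and the ratios within type pairs were chosen after seeing the data.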

Additional observations from a re-analysis of the deposited data

How the results depend on the processing

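Of 299 tests of single genes under another setting, 249 kept direction and side of the threshold, 28 passed where the reported fit did not (4 of them, all H19, with the opposite sign), 8 lost the call and 14 changed sign without passing. The cause was not tested unless fewer libraries or genes entered by construction. Replicate numbers did not pair the XEN samples (correlations of deviations from -0.16 to 0.11), while in EpiSC they did follow library type (0.78). With the replicate block, dXist XEN library 3 has a level of its own and adds nothing. That block called 368, 131, 1960 and 743 genes in dXist XEN, Aza in dXist XEN, dXist EpiSC and the cell type difference in the dXist effect, against 4, 14, 0 and 2, and 1, 1, 2 and 1 of the 6 genes. It also called 1 of the 6 in Aza in wild-type XEN (H19, adjusted p = 0.00248) and in the genotype difference in the Aza effect. Signs that turned with the block were Airn in dXist XEN (-0.046) and H19 in the differences of the Aza effect (5.61) and of the dXist effect (3.60).

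Without a filter, 684, 747, 2750, 337, 676 and 616 genes were called in dXist XEN, Aza in wild-type XEN, Aza in dXist XEN, the Aza difference, dXist EpiSC and the dXist difference, with 1, 2, 2 and 1 of the 6 genes in Aza in wild-type XEN, Aza in dXist XEN, dXist EpiSC and the dXist difference. DESeq2 called 455, 681, 2691, 211, 494 and 403, with 1, 1 and 2 of the 6 genes in Aza in wild-type XEN, Aza in dXist XEN and dXist EpiSC. The 13-library fit with library type called 31, 1, 1393, 0, 2 and 8, and 1 of the 6 genes in Aza in dXist XEN and in EpiSC against XEN. With genes without poly(A) tails left out, 0 were called in Aza in wild-type XEN and in the Aza difference, and RLE scaling called 29 in Aza in dXist XEN. Igf2r after Aza in dXist XEN turned to 0.024 with RLE, 0.0011 without those genes, 0.11 with library type and 0.022 with DESeq2, and in the Aza difference Igf2r and Airn turned to 0.094 and 0.35 with library type. Among polyA-like libraries the Airn to Igf2r ratio differed by -0.99 (exact permutation p = 0.0952) and the H19 to Igf2 ratio, uninformative where Igf2 is near 0 reads, by -1.23 against 0.064.

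Leaving out 1 library at a time gave 1 to 510 called genes in dXist XEN (0 to 1 of the 6), 44 to 61 in Aza in wild-type XEN, 0 to 4730 in Aza in dXist XEN (0 to 2), 28 to 1605 in the Aza difference (0 to 1), 0 to 174 in dXist EpiSC (0 to 1), 3045 to 4864 in EpiSC against XEN (0 to 1) and 1 to 670 in the dXist difference (0 to 1). The highest counts came without dXist XEN library 3 (510 and 670) and without treated dXist XEN library 2 (4730 and 1605). Ranges that crossed 0 were -0.14 to 0.18 for Airn in dXist XEN, -0.93 to 0.49 and -1.29 to 0.20 for Igf2r in Aza in dXist XEN and in the Aza difference, -0.98 to 5.62 for H19 in the Aza difference, -2.94 to 3.65 for H19 and -4.17 to 0.56 for Igf2 in the dXist difference, and -0.91 to 0.93 for the H19 to Igf2 ratio. The Airn to Igf2r ratio stayed between -1.12 and -0.88.

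Depth limited Igf2 in XEN cells and Slc22a2 and Slc22a3 everywhere, where 3 counts mark the detection floor.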

Other observations

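Of 13 tested imprinted growth genes outside the 2 domains, 1 was called after Aza in dXist XEN cells, Grb10, where 0.0761% of all genes were called. Without dXist library 3 it was 3 of 12, Grb10, Peg3 (adjusted p = 0.0443) and Peg10 (adjusted p = 0.0443), where 2.33% of all genes were called. The median log2 fold change of the list was 1.65 in dXist XEN, with 10 of 13 above 0, and -0.066 in wild-type XEN, with 6 of 13 above 0, beside -0.025 and -0.042 over all genes. For the difference between these effects only Grb10, 1 of the 13, was called, where 0.245% of all genes were. Treated wild-type libraries were total-like and treated dXist libraries polyA-like, so genotype and library type cannot be told apart here. Before treatment the list's median log2 fold change in dXist against wild-type XEN was -0.48, with 3 of 13 above 0. In wild-type XEN 0 of the 13 were called by edgeR, and the noncoding RNA Meg3 had the smallest adjusted p (7.33 ± 0.737 against 0.067 ± 0.0947 CPM, SD, n = 2 each, adjusted p = 0.0558). Trim28, a corepressor that protects imprints, stood at 154 ± 80.0 CPM (SD, n = 2) in treated and 506 ± 49.1 CPM (SD, n = 3) in untreated dXist XEN (adjusted p = 0.068).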
